A study of Mus musculus with 2 samples.

Results

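Caspases are proteases that cut target proteins after aspartate and carry out or start programmed cell death. The genes described here are 6 caspase genes and 1 of their substrate genes, Gsdmd, and they were taken as the named probes whose RefSeq accession belongs to Casp1, Casp2, Casp4, Casp6, Casp8, Casp9 or Gsdmd. These 7 genes stand among 18430 genes with a named probe. Casp1, Casp4 and Gsdmd form the inflammatory class of 3 genes, and Casp2, Casp6, Casp8 and Casp9 form the apoptotic class of 4 genes.

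Inflammatory caspases are activated on inflammasomes, complexes that assemble around sensors of microbial products or cell damage. They cut gasdermin D, whose freed end forms pores in the plasma membrane and lyses the cell, a death called pyroptosis. Apoptotic caspases act in a cascade instead, in which initiators are switched on by death receptors, by mitochondrial damage or by other stress, and executioners then take the cell apart without lysis. Activated T cells use the apoptotic route in the contraction of a response, and caspase-8 is also needed for their survival after stimulation.

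The RNA came from CD4 T cells of the spleen of C57BL/6 mice, an inbred strain, cultured for 5 days in all under conditions named Th9 or Th9+IFNgamma, and each condition was read on 1 single-colour array. The wild type cells of both groups were sorted with magnetic beads to a purity over 98%, given T cell receptor and CD28 stimulation for 2 days, and then kept in culture for 3 days. TGF-beta was given at 3 ng/ml in both groups. In Th9, IL-4 was used at 10 ng/ml together with 1 µg/ml of a blocking antibody to IFN-gamma, whereas in Th9+IFNgamma the dose of IL-4 was 3 ng/ml and 10 ng/ml of IFN-gamma was added. The added IFN-gamma, the antibody and the lower dose of IL-4 therefore cannot be told apart, and the labels give neither the age nor the number of the mice. With 1 array a group no value has a replicate, no test was possible, and every difference is described by its size.

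A scaled signal is the linear intensity after both arrays were brought to the same 75th percentile, and it compares 1 gene between the arrays, never 2 genes with each other. By the scanner software's flag, 60.6% of the probes were well above background in Th9+IFNgamma and 59.9% in Th9, and no spot was saturated. Over 12269 genes detected on both arrays, Th9+IFNgamma was higher by 2-fold or more for 632 (5.15%) and lower by as much for 910 (7.42%). The median log2 difference over these genes was -0.01. With normexp background correction, 437 genes were higher and 582 lower. All 6 T cell markers checked, among them Cd3e and Cd4, were detected on both arrays with log2 differences between -0.35 and 0.66.

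Gsdmd had the largest difference of the 7 genes and Casp6 the next largest, in opposite directions. Gsdmd was 2.05-fold higher in Th9+IFNgamma, Casp1 was 1.58-fold higher, and Casp4 was 1.43-fold lower, so the inflammatory class was split. In the apoptotic class, Casp6 was 1.85-fold lower and Casp9 1.58-fold lower, Casp8 was 1.19-fold higher and Casp2 lay at 1.05-fold. All 7 genes were well above background on both arrays, each by 1 probe. At 2-fold, 1 of the 7 was higher, where 5.15% of all genes were, and 0 were lower, where 7.42% were. At 1.5-fold, 2 were higher (Gsdmd and Casp1), where 12.6% of all genes were, and 2 were lower (Casp6 and Casp9), where 15.5% were. That makes 4 of 7 either way, where 28.1% of all genes were. Counts over so few genes say nothing particular about them.

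**Figure D1:**
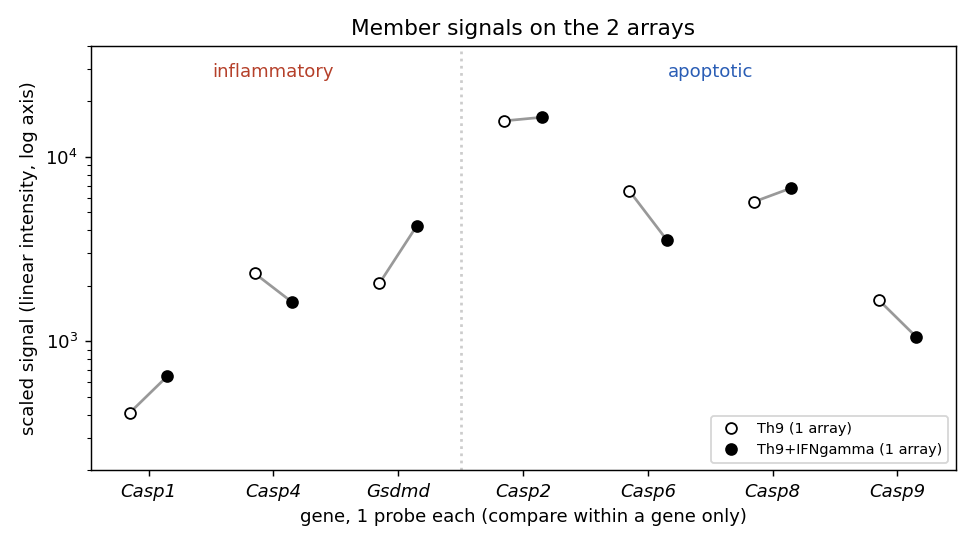
Scaled signal (linear intensity on a log axis) of the 7 genes on the Th9 array (open points) and the Th9+IFNgamma array (filled points), 1 probe and 1 array each, with no error bar because no array was repeated. The line falls from left to right for Casp4, Casp6 and Casp9 and rises most steeply for Gsdmd, from 2067 to 4243. Heights of different genes are not comparable.

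Gsdmd encodes gasdermin D, the pore-forming protein on which both inflammatory caspases converge. Its signal was 4243 in Th9+IFNgamma and 2067 in Th9. The Gsdmd probe is printed 10 times on each array, which gives this gene a spread within the array that the other 6 genes lack. An outlier flag removed 1 of its spots on the Th9 array, and 9 positions remained on both. Over these 9 positions the signal was 4259 ± 95.6 (SD of spots within 1 array) in Th9+IFNgamma, from 4119 to 4402. In Th9 it was 2068 ± 71.1 (SD of spots), from 1979 to 2170. The 2 sets of spots did not overlap, and the dimmest Th9+IFNgamma spot was 1.90-fold above the brightest Th9 spot. Position by position the log2 difference was 1.04 ± 0.03 (SD of spots), and 8 of the 9 positions reached 2-fold, the exception lying at 1.97-fold. The spots share 1 RNA sample and 1 labelling reaction an array, so their SD covers printing and reading alone.

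**Figure D2:**
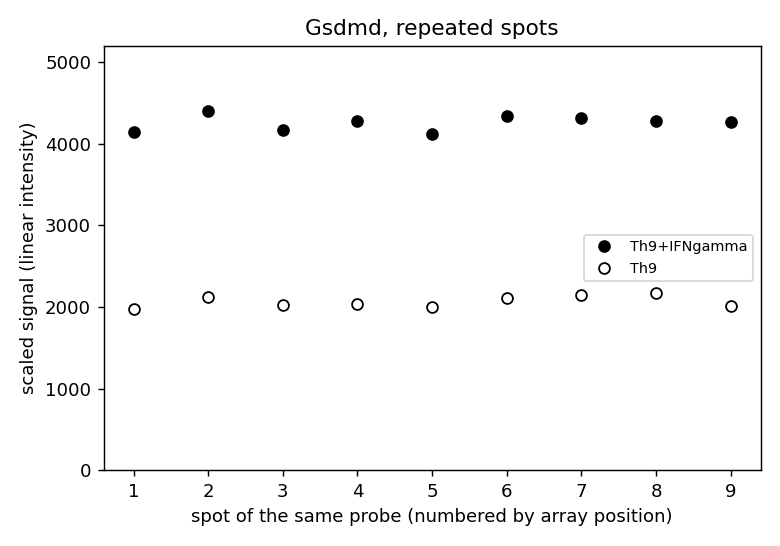
Scaled signal of the Gsdmd probe at the 9 array positions usable on both arrays, in Th9+IFNgamma (filled) and Th9 (open), on a linear axis from 0. The Th9+IFNgamma spots sit between 4119 and 4402 and the Th9 spots between 1979 and 2170, with no overlap.

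The log2 difference of Gsdmd, 1.04, lay just past the 2-fold limit. It was 0.99 with quantile normalization, 0.99 with loess on intensity and 0.97 with normexp, so these 3 settings end the 2-fold call. The direction was the same in all 10 alternative settings, but not all of these could change it. Gsdmd has 1 bright probe, so the choice of probe, the detection filter and the signal minimum left its value as it was. The authors' deposited log2 values share the main scaling. Of the 12269 genes, 597 (4.87%) had a higher difference than Gsdmd.

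Casp1 encodes caspase-1, the protease of canonical inflammasomes, which matures the cytokines IL-1beta and IL-18 and cuts gasdermin D. Its signal was 647 in Th9+IFNgamma and 410 in Th9, a log2 difference of 0.66. Of the 12269 genes, 1313 had a higher difference. The probe was well clear of background, at 58.3 times (Th9+IFNgamma) and 32.8 times (Th9) the lowest signal that was called well above background there. With normexp the log2 difference was 0.49.

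Casp4 encodes the mouse caspase also called Casp11, which senses bacterial lipopolysaccharide in the cytosol and cuts gasdermin D in the noncanonical pathway. Its signal was 1631 in Th9+IFNgamma and 2338 in Th9, a log2 difference of -0.52. In the whole set 17.8% of the genes had a lower difference. The log2 difference of Casp1 exceeded that of Casp4 by 1.18, which is a 2.26-fold shift of the Casp1 to Casp4 ratio between the arrays, and that of Gsdmd exceeded Casp4 by 1.56 (2.94-fold). Casp4 thus lay on the other side of 0 from the protease and the pore-forming substrate of its own class.

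Casp1 and Casp4 are neighbours on mouse chromosome 9 in the RefSeq annotation, with Casp12 next in the same row. Because these adjacent genes had opposite differences, the 250 bases before each annotated start are shown, from RefSeq, build GRCm38.p6, both on the + strand. Casp1 lies at chr9:5298267-5298516 and Casp4 at chr9:5308599-5308848. A second annotated start of Casp4 lies 11 bases further on. Capitals mark matches on either strand to the kB-type motif, GGG, any 2 bases and TTTCC, which NF-kB dimers bind.
Casp1: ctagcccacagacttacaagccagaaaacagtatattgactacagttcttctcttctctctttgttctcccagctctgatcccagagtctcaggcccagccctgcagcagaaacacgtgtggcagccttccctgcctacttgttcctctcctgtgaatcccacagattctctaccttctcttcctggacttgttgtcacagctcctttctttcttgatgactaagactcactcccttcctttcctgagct
Casp4: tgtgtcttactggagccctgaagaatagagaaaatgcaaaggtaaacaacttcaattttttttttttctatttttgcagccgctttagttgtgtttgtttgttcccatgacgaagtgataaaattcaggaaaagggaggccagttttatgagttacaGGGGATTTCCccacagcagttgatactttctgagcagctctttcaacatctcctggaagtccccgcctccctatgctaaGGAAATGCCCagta

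The motifs searched were the GAS type TTCNNNGAA, named for the gamma-activated site of interferon-gamma targets, the IRF type (a pair of GAAA with 2 bases between them), the STAT6 type (TTC and GAA with 4 bases between them) and the kB type, on both strands in the 300 bases from 250 before to 50 after the start. The kB-type and STAT6-type letters were added after the windows had been read, so the Casp4 match is a description. The Casp4 window held 2 kB-type matches, beginning 93 bases before the start on the + strand and 14 bases before it on the - strand, and the Casp1 window held 0. Of 32851 annotated windows, 1.63% held the kB-type letters, 8.30% the GAS type, 3.44% the IRF type and 6.95% the STAT6 type, and the types can overlap. None of the 6 caspase genes had a GAS-type, IRF-type or STAT6-type match in its window, which says only that these letters are not in these 300 bases. RefSeq windows matched 6 of the 7 genes, all but Gsdmd.

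Among the apoptotic initiators, Casp8 encodes caspase-8, which is recruited to death receptors such as Fas and also restrains necroptosis. Its signal was 6788 in Th9+IFNgamma and 5709 in Th9, a log2 difference of 0.25, and 29.0% of all genes had a higher difference. Casp9 encodes caspase-9, which the apoptosome activates once cytochrome c leaves mitochondria. It was read at 1058 in Th9+IFNgamma and 1677 in Th9, a log2 difference of -0.66, and 13.3% of all genes had a lower difference. Casp2 encodes caspase-2, the initiator of the PIDDosome, which responds to extra centrosomes and DNA damage. Its signals of 16406 in Th9+IFNgamma and 15696 in Th9 gave a log2 difference of 0.06, in the middle of the distribution, with 43.7% of the genes higher. With quantile normalization that value was -0.03, so Casp2 has no settled direction. The 3 initiators therefore lay on both sides of 0.

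Casp6 encodes caspase-6, an executioner known for cutting nuclear lamins. Its signal was 3560 in Th9+IFNgamma and 6572 in Th9, a log2 difference of -0.88, and 8.85% of all genes had a lower difference. It was the lowest of the 7 genes and lay within 2-fold in every alternative setting, from -0.94 to -0.77. The log2 difference of Casp8 exceeded that of Casp6 by 1.13, a 2.19-fold shift of their ratio and about as wide as the Casp1 to Casp4 gap of the inflammatory class.

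**Figure D3:**
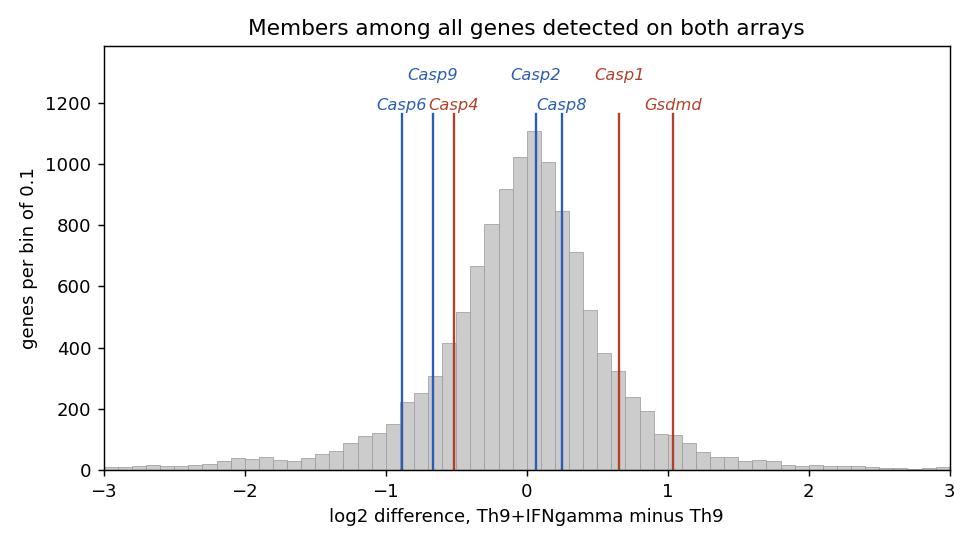
Number of genes in bins of 0.1 of the log2 difference, Th9+IFNgamma minus Th9, for genes detected on both arrays, drawn from -3 to 3, with vertical lines at the inflammatory (red) and apoptotic (blue) genes. Casp2 at 0.06 and Casp8 at 0.25 lie in the bulk, Gsdmd at 1.04 and Casp6 at -0.88 in the flanks, and the red and blue lines are interleaved.

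Set against each other, the inflammatory class had a median log2 difference of 0.66 and the apoptotic class of -0.30, a gap of 0.96 (1.94-fold). By means the classes lay at 0.39 and -0.31, a gap of 0.70. Over the 10 alternative settings the gap of medians ran from 0.81 to 1.03. Only normexp (0.81), loess on intensity (0.99) and quantile normalization (1.03) changed it. A shift common to all genes cancels in this gap, and the settings on probes and detection cannot move genes with 1 bright probe. The classes overlapped, with Casp4 at -0.52 below both Casp8 and Casp2. With so few genes, leaving out 1 of them moved the gap. It was 0.37 without Gsdmd, where the inflammatory median was 0.07, and 0.56 without Casp1. Without Casp6 or without Casp9 it was 0.59, and the apoptotic median turned to 0.06. Without Casp4 the gap was 1.15, and without Casp2 or without Casp8 it was 1.32. Over all 7 genes the median was 0.06 and the mean -0.01, of opposite sign.

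Technical yardsticks bear on the smaller differences. The extraction software attached an error of 10% or so to each signal, which gave 0.20 on the log2 difference of each of the 7 genes. The differences of Gsdmd, Casp6, Casp9, Casp1, Casp4 and, at 0.25, Casp8 exceeded that error, and that of Casp2 was smaller than it. Single spots of 64 probes printed several times, with signals above 1024, scattered around the mean of their probe with an SD of 0.05 in the log2 difference. From 64 to 1024 that SD was 0.09 (50 probes). Below 64, where some dim genes of the lists described further on lie, it was 0.29 (32 probes). Neither yardstick covers differences from mouse to mouse, from culture to culture or from one labelling to the next.

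**Figure D4:**
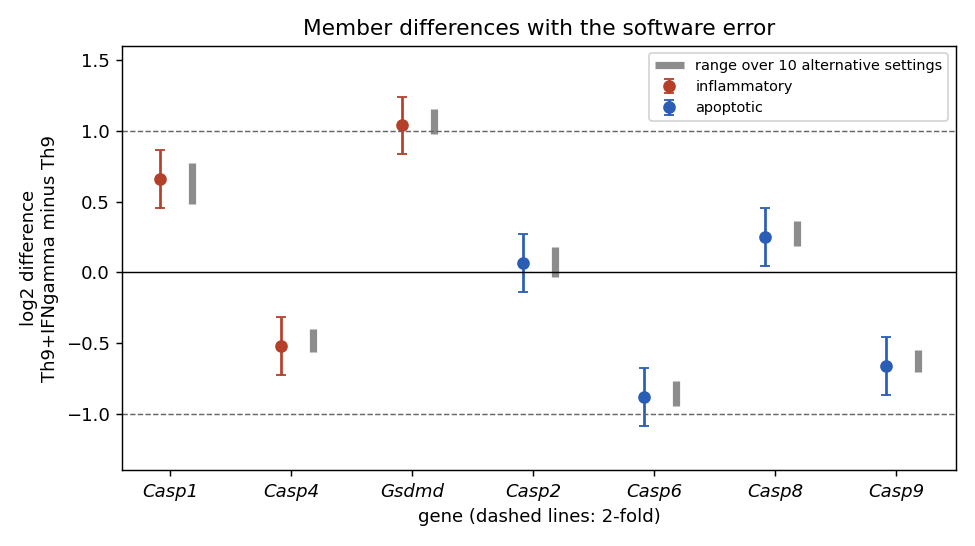
Log2 difference, Th9+IFNgamma minus Th9, of each gene (points), with the software error of 0.20 as bars and the range over 10 alternative settings as grey strips. Dashed lines mark 2-fold. The strip of Gsdmd crosses the upper line (0.97 to 1.15), that of Casp2 crosses 0 (-0.03 to 0.18), and those of the other 5 stay on their side of 0 and inside 2-fold.

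Around these genes, 8 lists of genes around the death pathways, 1 of them of interferon factors, were used. They held 68 different genes, of which 52 were detected on both arrays. Of these, 4 were past 2-fold towards Th9+IFNgamma (7.69%, where 5.15% of all genes were) and 4 past 2-fold towards Th9 (7.69%, where 7.42% were), and their median was 0.14. The interferon factors Irf1 and Irf8 were 2 of the 4 higher genes, so the higher count is not one of death genes alone. The shares of 5.15% and 7.42% are also the background for the count of each list below, and the lists are too short for such counts to say anything particular. Naip1 is the 1 gene that stands in 2 of the lists.

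Of 2 other caspase genes checked, Casp12, next to Casp4 on the chromosome, and Casp14, a caspase of the epidermis, both were well above background on neither array.

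Of the other gasdermins and the membrane rupture gene Ninj1, 5 of 9 were measured, and 1 was at least 2-fold lower and 0 higher. Gsdma, a gasdermin of the skin, was 4.01-fold lower, at 24.5 in Th9+IFNgamma against 98.0 in Th9, and its log2 difference was -0.91 with normexp, which ends the 2-fold call. Gsdme was 1.23-fold higher (332 against 269). Ninj1, whose protein breaks the membrane after pore formation, was 1.46-fold lower (1694 against 2474). These last 2 were named after their values were seen. The list median of -0.40 is the value of Gsdmc3, a dim gene (52.1 against 68.9) named after its value was seen. With signals of at least 100 the median was -0.12. Its sign was opposite to that of Gsdmd, while Gsdme had the same sign as Gsdmd.

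Of 16 inflammasome sensor and adaptor genes, 8 were detected on both arrays and 0 were past 2-fold, with a median of 0.25 that was 0.04 with normexp and -0.003 with no detection filter. Pycard, which encodes the adaptor ASC that links sensors to caspase-1, was 1.28-fold higher, at 30860 in Th9+IFNgamma against 24113 in Th9, and its 2 probes gave 0.36 and 0.35. The sensor genes Aim2, Nlrc4, Nlrp12, Naip1, Naip6 and Mefv were well above background on neither array. Nlrp3, named after its value was seen, was dim at 25.8 against 39.2. RNA of the proteases, the adaptor and the pore former was therefore measured in both cultures. In this list 8 of 14 genes with a named probe were detected on both arrays and 6 were below detection. Of all 18430 genes with a named probe, 12269 were detected on both arrays, so the count of undetected genes says nothing particular about this list.

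Cytokine genes of the IL-1 family, among them the caspase-1 substrates, were near or below the detection limit, as Il1b, Il1a and Il33 were well above background on neither array and Il18 was read at 21.0 against 17.2 (Il18 named after its value was seen). Il1rn, which encodes the IL-1 receptor antagonist, was detected in Th9 and not in Th9+IFNgamma, where by its bound it was at least 13.3-fold lower. That bound was computed in the main setting alone, so how it changes with normexp was not tested. The 2 protease inhibitor genes of this list went opposite ways. Serpinb9, whose protein blocks granzyme B, was 7.80-fold higher in Th9+IFNgamma (136 against 17.5), with a log2 difference of 2.96 that was 1.29 with normexp. Serpinb1a, an inhibitor of neutrophil proteases that also holds back inflammatory caspases, was 7.88-fold lower (707 against 5571). With 3 genes measured, the list median of 0.29 is the value of Il18 and turned sign with normexp (-0.05), with signals of at least 100 (-0.01) and with no detection filter (-0.29).

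All 13 genes of the death receptor arm, which holds receptors, ligands, adaptors, the caspase-8 substrate gene Bid and necroptosis genes, were measured, and 1 was at least 2-fold higher and 0 lower, with a median of 0.28. The exception was Zbp1, a nucleic acid sensor that starts necroptosis and is known as an interferon-induced gene, at 14177 in Th9+IFNgamma against 2703 in Th9 (5.25-fold higher). Fas, the death receptor itself, was 1.93-fold higher (3809 against 1974), and 1.34 on the log2 scale by its other probe. Averaging both probes gave 1.14, and median scaling 1.06, so these settings put Fas past 2-fold. Fasl, its ligand, was 1.32-fold lower (819 against 1078). Cflar, which encodes the caspase-8 inhibitor c-FLIP, was 1.06-fold higher (5598 against 5284) by its brightest probe, and its 4 probes had log2 differences from 0.08 to 0.37. Casp8 and its inhibitor thus both lay within 2-fold.

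Of the 6 apoptosome and PIDDosome genes, 0 were past 2-fold and the median was 0.10. Apaf1, the scaffold that activates caspase-9, lay at 714 in Th9+IFNgamma against 658 in Th9, a log2 difference of 0.12 (up to 0.54 by its other probes), where Casp9 had -0.66. Cradd, which links caspase-2 to its scaffold and was named after its value was seen, was 1.76-fold lower (2376 against 4192), where Casp2 was level. Of 6 inhibitor of apoptosis genes, 5 were measured and 0 were past 2-fold, with a median of 0.37. Xiap, which blocks caspase-9 and the executioners, was 1.32-fold higher (425 against 322).

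A list of 8 genes held proteins that caspases cut or set free by a cut, most of them nuclear. Of these genes, 2 were at least 2-fold lower, where 7.42% of all genes were, and 0 higher, where 5.15% were. Their median of -0.03 turned sign with median scaling (0.09) and with normexp (0.0054). Satb1, a chromatin organiser of T cells, was 5.92-fold lower in Th9+IFNgamma (3239 against 19184). Lmna, which encodes lamin A and C, the substrate caspase-6 is known for, was 2.87-fold lower (2522 against 7243). The gene of another lamin, Lmnb1, named after its value was seen, was 1.70-fold higher (12404 against 7284). These are RNA signals and carry no measure of cleavage.

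The 4 interferon regulatory factor genes had the highest median of the 8 lists, 1.45, and 2 of them were at least 2-fold higher, where 5.15% of all genes were. Irf1 was 7.30-fold higher (67689 against 9272) and Irf8 4.02-fold higher (33228 against 8261). Irf2, which encodes a factor known to drive Gsdmd transcription, was 1.51-fold higher (614 against 407). None of the 7 caspase and gasdermin D genes had a difference as large as that of Irf8, 2.01 on the log2 scale.

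**Figure D5:**
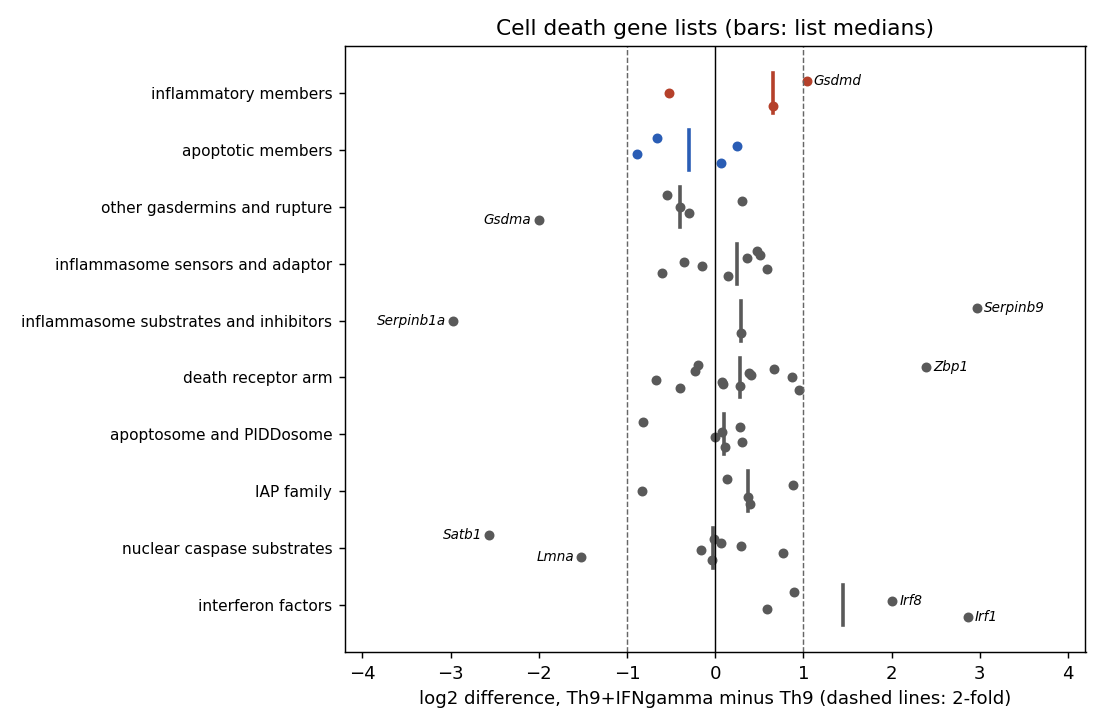
Log2 difference, Th9+IFNgamma minus Th9, of every gene detected on both arrays in the 2 classes and the 8 lists (points), with list medians as bars, dashed lines at 2-fold and names for genes past it. The interferon factors sit to the right, with a median of 1.45, while the other 7 lists have medians between -0.40 and 0.37.

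Myeloid cells express Casp1, Casp4 and Gsdmd, and the cultures were checked for their markers. Of 6 macrophage or monocyte markers with a named probe, Lyz2, Fcgr1 and Itgam were well above background on neither array. The other 3 were dim, with a summed scaled signal of 86.3 in Th9+IFNgamma and 241 in Th9, in which Adgre1 had 25.8 and 186. Of 4 neutrophil markers, S100a8, S100a9 and Ngp were well above background on neither array and Mpo was read at 25.4 and 37.8. Of 5 dendritic cell markers with a named probe, Itgax and Siglech were below background and the other 3 summed to 143 and 156. Of 5 B cell markers, the 3 detected on both arrays summed to 914 and 1294, with Cd79b at 844 and 1187. Cd79a was detected in Th9 alone (11.4 and 17.6), and Pax5 was below background. Cd8a, of CD8 T cells, was at 1338 and 1074. Of 3 NK cell markers, Ncr1 was below background and Klrb1c and Klra8 summed to 36.0 and 111. Of 2 erythroid markers, Alas2 was below background, and Hba-a1 was at 120 and 53.4. The part of these cells in the differences was not tested, and in a bulk sample fewer cells of a type and less RNA a cell cannot be told apart.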

How the data were processed

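The authors read each Cy3-labelled RNA (500 ng, per the labels) on 1 array. The deposited intensity values, per the file headers, came from Agilent Feature Extraction 10.7.3.1 (10.7 in the submitters' processing notes), background-subtracted and detrended within the array, with no scaling between arrays. The authors also deposited log2 values, whose column medians were -4.05 (Th9+IFNgamma) and -3.93 (Th9). Set against the scanner values they are log2 signal relative to the array's 75th percentile (99.7% and 99.6% of probes within 0.01 of a constant offset), so scale, centring and direction are known.

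Control and outlier spots were left out, log2 processed signals were averaged per probe (41171 probes), and each array's 75th percentile (632 for Th9+IFNgamma, 567 for Th9, brought to 599) was subtracted. Accessions were matched without version to RefSeq genes of GRCm38.p6: 27042 probes (65.7%) had 1 symbol, 0 several and 14129 none. The array headers name mm9, so only the RefSeq promoter windows carry coordinates. A gene's value is its brightest probe well above background on both arrays. A gene detected on 1 array has a bound, its signal there divided by its signal on the other array or by the lowest detected one on that array, whichever is larger (11.1 for Th9+IFNgamma, 12.5 for Th9).

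Groups came from the culture condition in the labels. With 1 array a group there was no test, the 2-fold limit is descriptive, and the number of arrays limits the precision. Members, lists and alternatives were chosen with earlier results of these data known. Genes named were all members, up to 3 genes past 2-fold in each direction and list, bounds past 2-fold, and 8 chosen by function (Pycard, Fas, Fasl, Cflar, Apaf1, Xiap, Irf1 and Irf2). The few named outside this rule are marked as named after their values were seen, except genes not well above background and cell type markers. A few other listed genes are not reported here, and list counts leave them out. The scaling was run on simulated data with few and nearly balanced changes. That run does not show how it behaves with the more numerous, unbalanced changes of these arrays. Normexp (limma 3.58.1, R 4.3.3, offset 50) used the median spot and background signals, since the files used here hold no mean spot signal column. The other steps ran in Python 3.11.15. Protein identity between members was not analysed here.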

Additional observations from a re-analysis of the deposited data

How the results depend on the processing

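Among 10 alternative settings, median scaling moved the median of all genes from -0.01 to 0.11, and with it the log2 differences of Casp4 to -0.40, Gsdmd to 1.15, Casp2 to 0.18, Casp6 to -0.77, Casp8 to 0.36 and Casp9 to -0.55. Quantile normalization gave -0.031 for Casp2, and normexp -0.78 for Casp6. Casp1, Casp4, Gsdmd, Casp6, Casp8 and Casp9 kept their direction in all 10, and Gsdmd stayed past 2-fold in 7. These counts include settings on the choice of probe, the detection filter and the signal minimum. Such settings could not move these genes, which have 1 bright probe each. In alternatives chosen after seeing the data, the inflammatory median was 0.069 without Gsdmd and 0.26 without Casp1. The apoptotic median was -0.66 without Casp2 or without Casp8 and 0.064 without Casp6 or without Casp9. The gap between the classes was 0.37 without Gsdmd, 0.56 without Casp1, 0.59 without Casp6 or Casp9 and 1.32 without Casp2 or Casp8, and it kept its sign throughout. Means in place of medians gave 0.39, -0.31 and 0.70. The median of inflammasome substrates and inhibitors was -0.046 with normexp, -0.29 with no detection filter and -0.0069 with signals of at least 100. Over all genes, no detection filter gave 1205 higher and 1788 lower, with genes below the detection limit counted too, and normexp gave 582 lower. Median scaling gave 772 higher and 776 lower against 632 and 910. No paired analysis was possible because each group has 1 array. Signal over background limits Gsdma and Serpinb9, and for the other values the cause was not tested.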
